A study of Homo sapiens with 30 samples.

Results

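SNAI1, SNAI2, TWIST1, TWIST2, ZEB1, ZEB2, CDH1 and CDH2 were followed in A375, an established human melanoma cell line. The first 6 encode transcription factors named for driving the epithelial to mesenchymal transition, and CDH1 and CDH2 encode E-cadherin and N-cadherin. The genes were taken by symbol from the gene count files. They are 8 of the 26364 genes listed, and all 8 are among the 15381 genes with enough counts to be tested. CDH1 passed the count filter only through 3 libraries, described below.

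SNAI and ZEB proteins are zinc finger factors that bind E-box sequences and are best known for repressing CDH1, the gene of the cadherin that holds epithelial cells together. TWIST proteins are basic helix-loop-helix factors that pair with E proteins to bind DNA, and ID proteins block that pairing. N-cadherin, the product of CDH2, is the adhesion molecule of many mesenchymal and neural cells and often takes the place of E-cadherin in melanoma. In the melanocyte lineage SNAI2 and ZEB2 are known from differentiated cells, whereas TWIST1 and ZEB1 are known from dedifferentiated melanoma.

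The study sorted A375 cells by surface integrin β4 (ITGB4, a laminin receptor subunit) and passed them through Transwell filters with 5 µm pores, with fibronectin on the lower face. The 30 libraries of polyadenylated RNA make 10 groups of 3. Its title sets differences present before migration beside those that come with it. A population raised from 1 cell (Clone3), which the text of the series mentions, was not analysed here. Parental negative and Parental positive are cells of the original line that went through 0 rounds of migration, sorted as ITGB4 negative or ITGB4 positive. Top 10 negative and Top 10 positive come from cells that stayed above the filter in 10 rounds. Bottom 10 negative and Bottom 10 positive come from cells that crossed in each of 10 rounds. Bottom 5 negative cells crossed in 5 rounds, and Top 5 positive cells stayed above in 5. In the remaining pair the titles place the sort before the migration: ITGB4 negative cells that then crossed 4 times (Sorted negative then Bottom 4) and ITGB4 positive cells that then crossed 5 times (Sorted positive then Bottom 5). The series text gives 5 rounds, and the sample titles, with 4, 5 and 10, were followed. The sort set the gate by unstained cells and used 1 of 2 sorters, without a record of which sorter handled which sample.

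Gene counts per library ran from 14258919 to 29134945. Levels are given as CPM, counts scaled to a common library total, with the SD over n = 3 libraries. A log2 fold change is printed ± its SE from 1 edgeR quasi-likelihood fit of all 30 libraries, and an adjusted p is Benjamini-Hochberg over the 15381 genes, with a threshold of 0.05. A gene is said to rise, fall, or be called only where it passed that threshold. Rise and fall set one group against another and do not say which of them changed. The labels number biological replicates and do not say whether each was its own culture. The p-values therefore reflect the spread among these samples, which may be technical. With 3 libraries against 3, chance alone leaves 10% of genes without overlap. The share of all genes without overlap is not given, so a lack of overlap is a description only. In bulk RNA, fewer cells that express a gene and less RNA per cell cannot be told apart. On the second principal component 6 libraries scored above 30 and stood apart: Top 10 negative replicate 1, Bottom 10 positive replicate 3, Sorted negative then Bottom 4 replicate 2, Bottom 5 negative replicate 2, and Top 5 positive replicates 1 and 3. ITGB4 itself ran from a mean of 7.38 ± 5.17 CPM in Top 10 negative to 194 ± 149 in Sorted positive then Bottom 5. Its RNA did not follow the sort alone. Means were 135 ± 162 CPM in Sorted negative then Bottom 4 and 100 ± 66.6 in Parental positive cells. They were 28.9 ± 24.5 in Top 10 positive and 27.8 ± 5.13 in Parental negative cells. Negative and positive libraries overlapped in Top 10 and in Bottom 10 cells but not in Parental cells. Among 14 melanoma markers SOX10 averaged 757 and CSPG4 1078 CPM, while the pigment cell genes TYR and MLANA averaged 0.00366 and 0.196 CPM. Of 13 keratinocyte markers, KRT10, PERP and KRT14 averaged 104, 87.4 and 13.3 CPM, and the list summed to 142 to 416 CPM per library, while KRT5 and TP63 averaged 0.170 and 0.0553. The 12 fibroblast markers summed to 25.3 to 68.5 CPM, led by PDGFRB (19.3) and COL1A1 (6.85), with COL3A1 at 0.0818. The 12 blood and endothelial markers summed to 7.40 to 30.2 CPM, led by KDR (5.83) and LYZ (5.81), with PTPRC at 0.0473 and CD3E listed at 0 in all 30 libraries.

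Per kilobase of transcript, CDH2 was the most abundant of the 8, with a median of 24.6 CPM per kb over the 30 libraries. TWIST1 and SNAI1 followed at 13.6 and 13.4, then ZEB1 at 8.50, TWIST2 at 4.88 and ZEB2 at 4.53. SNAI2 was scarce at 0.243 and CDH1 lay at 0.00847 CPM per kb. CDH2 thus had the higher level of the pair of cadherins in every library, also in the 3 libraries with most CDH1 reads. The plot of levels by group shows every library.

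**Figure D1:**
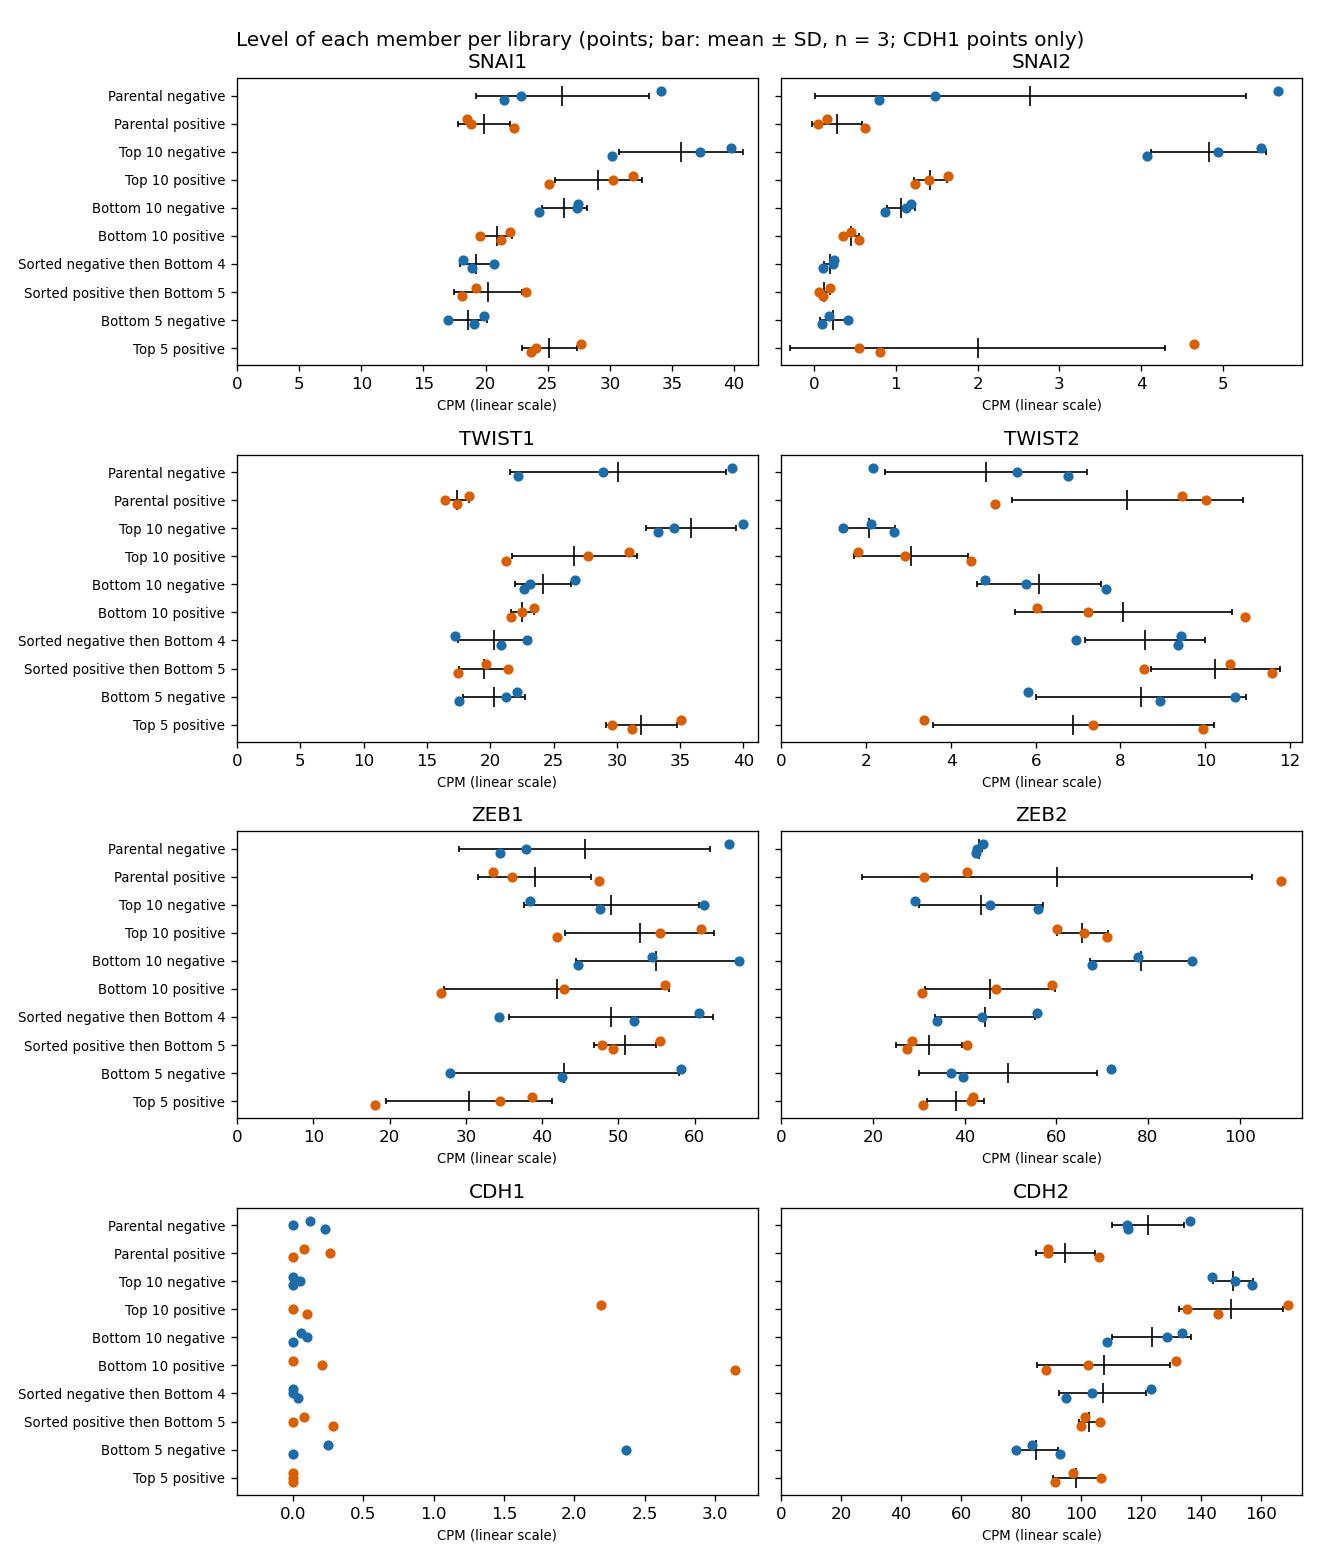
CPM (linear scale, x axis) of each gene in each library, by group (y axis; blue points, negative sort; orange points, positive sort). The vertical tick and bar are the mean ± SD of 3 libraries, not drawn for CDH1. SNAI1, SNAI2, TWIST1 and CDH2 reached their highest group mean in Top 10 negative cells, where TWIST2 reached its lowest, and CDH1 stood out in 3 single libraries.

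SNAI2 (SLUG), a zinc finger repressor of neural crest cells and melanocytes, had the widest relative range of the 8 after CDH1, from 0.0530 to 5.67 CPM. In Top 10 negative cells its 3 libraries held 5.46, 4.95 and 4.07 CPM, and in Top 10 positive cells 1.63, 1.40 and 1.23. Bottom 10 negative cells held 1.19, 1.13 and 0.866 CPM and Bottom 10 positive cells 0.447, 0.354 and 0.547. These 4 groups stood in that order with no overlap between neighbours. Parental negative cells held 5.67, 1.48 and 0.788 CPM, with replicate 1 far above the others, and Parental positive cells held 0.152, 0.0530 and 0.624. Top 5 positive cells were split in the same manner, with 4.65 CPM in replicate 1 and 0.555 and 0.807 in the others. All 3 of the remaining groups were lower, at 0.0997 to 0.412 CPM in Bottom 5 negative, 0.112 to 0.239 in Sorted negative then Bottom 4 and 0.0539 to 0.193 in Sorted positive then Bottom 5. Those levels rest on 13, 12 and 8 reads summed over the 3 libraries of each group, so their differences from one another were not detectable at this depth.

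SNAI1 (SNAIL), the founding repressor of the family, varied far less, from 16.9 to 39.8 CPM. Top 10 negative cells held 39.8, 37.2 and 30.1 CPM and Top 10 positive cells 31.9, 30.2 and 25.1. Bottom 10 negative cells held 27.4, 27.4 and 24.3 CPM, and the 3 Bottom 10 positive libraries 22.0, 19.6 and 21.2. The Top 10 and Bottom 10 libraries of the same sort did not overlap, while Top 10 positive and Bottom 10 negative did. Parental negative replicate 1 again lay apart, at 34.1 CPM against 22.9 and 21.5, and Parental positive cells held 18.5, 18.8 and 22.3. Bottom 5 negative cells had the lowest mean, with libraries from 16.9 to 19.9 CPM, and each of the 9 neighbouring pairs in the order of group means overlapped but 1, the step from Top 5 positive (25.1 ± 2.20) to Bottom 10 positive (20.9 ± 1.23).

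TWIST1, the helix-loop-helix factor of cranial neural crest and of invasive melanoma, followed a similar order. It held 39.9, 34.5 and 33.2 CPM in Top 10 negative and 30.9, 27.8 and 21.2 in Top 10 positive cells. Bottom 10 negative cells held 26.7, 23.1 and 22.7 CPM and Bottom 10 positive cells 23.4, 22.5 and 21.6. Top 5 positive cells stood high, at 35.0, 29.6 and 31.2 CPM, and Parental positive cells lowest, at 18.3, 16.4 and 17.4. Parental negative libraries spread from 39.1 in replicate 1 to 28.9 and 22.2 CPM. No step between neighbours in the order of its 10 group means was free of overlap.

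TWIST2 (DERMO1), the close relative of TWIST1 known from dermal fibroblast precursors, ran the other way. Top 10 negative cells held 2.12, 1.45 and 2.65 CPM and Top 10 positive cells 1.80, 2.91 and 4.48, the lowest pair of groups. Bottom 10 negative cells held 4.81, 5.77 and 7.67 CPM and Bottom 10 positive cells 6.04, 7.23 and 10.9, and every Bottom 10 library lay above every Top 10 library. Sorted positive then Bottom 5 cells had the highest mean, 10.2 ± 1.53 CPM. In Parental negative cells replicate 1, the library high in SNAI1, SNAI2 and TWIST1, held 2.16 CPM of TWIST2 against 5.56 and 6.76. Top 5 positive replicate 1, the library high in SNAI2, held 3.37 CPM against 7.34 and 9.95.

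Per kilobase, TWIST1 exceeded TWIST2 in every library, but the ratio moved from 1.27 in Sorted positive then Bottom 5 replicate 3 to 20.0 in Top 10 negative replicate 2. Its group median was 15.8 for Top 10 negative, 8.05 for Top 10 positive, 3.38 for Bottom 10 negative and 2.63 for Bottom 10 positive. In Sorted positive then Bottom 5 cells it was 1.57.

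**Figure D2:**
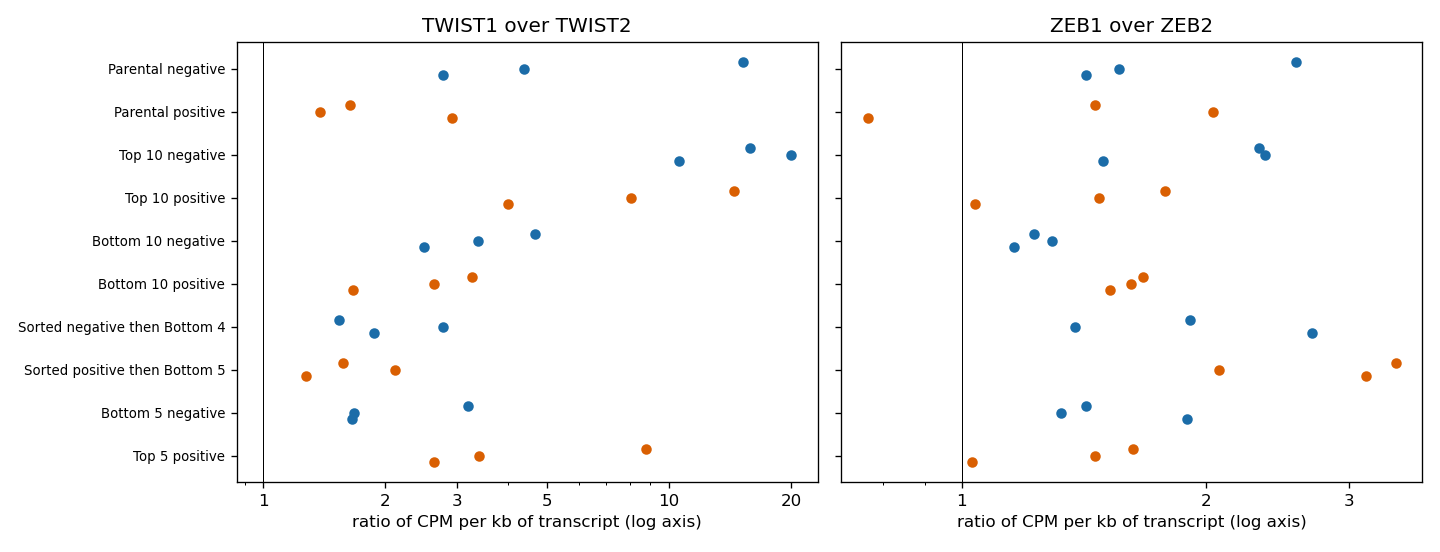
Ratio of TWIST1 to TWIST2 and of ZEB1 to ZEB2, in CPM per kb of transcript (log x axis), in each library by group (y axis; blue points, negative sort; orange points, positive sort; the vertical line marks equal levels). TWIST1 over TWIST2 ran from 1.27 to 20.0 with its highest values in Top 10 negative cells, and ZEB1 over ZEB2 from 0.766 to 3.43.

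ZEB1 and ZEB2, which each carry a zinc finger cluster at either end of the protein, were ordered differently from each other and from SNAI and TWIST genes. ZEB1 group means lay between 30.4 ± 10.9 CPM in Top 5 positive and 55.0 ± 10.6 in Bottom 10 negative cells, and all 9 steps between neighbours overlapped. In the 6 libraries that stood apart ZEB1 ran from 18.1 to 38.6 CPM with a median of 31.2, against 33.6 to 65.8 with a median of 48.5 in the other 24. ZEB2 had its highest mean in Bottom 10 negative cells, at 77.9, 89.7 and 67.8 CPM, and Sorted positive then Bottom 5 cells had the lowest, at 28.5, 40.5 and 27.5. Parental positive replicate 3 held 109 CPM of ZEB2, against 40.5 and 31.1 in the other libraries of its group and 42.6 to 44.0 in Parental negative cells. Neither gene was called in any of the 24 comparisons by edgeR in the fit of all 30 libraries. At an unadjusted p under 0.05 ZEB1 passed in 2 and ZEB2 in 5 of the 19 comparisons of single groups, and DESeq2 called neither in those 19. Both genes share exon bases with antisense genes in a GENCODE annotation (366 bases with ZEB1-AS1 and 1299 with ZEB2-AS1), and the strand setting of the counting is not given in the sources used here, so reads from those bases cannot be assigned to one strand. ZEB1-AS1 averaged 3.32 and ZEB2-AS1 0.00875 CPM. The same limit applies to TWIST1, CDH2 and CDH1, which share 141, 136 and 347 exon bases with antisense genes whose levels were not analysed here.

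SNAI and ZEB factors bind an E-box, so promoters of these genes were searched for CAGGTG, which reads CACCTG on the opposite strand. Of the 8 genes 4 (TWIST2, ZEB1, ZEB2 and CDH2) have entries in the RefSeq promoter table used (GRCh38.p14), with 11 start sites and 250 bases before and 50 after each. CDH1, SNAI1, SNAI2 and TWIST1 are named only. The 3 promoters shown are that of TWIST2, which ran opposite to SNAI1, SNAI2, TWIST1 and CDH2, the ZEB1 start site with most matches, and the upstream start of CDH2. TWIST2 lies at chr2:238847835-238848134 on the plus strand, ZEB1 at chr10:31318966-31319265 on the plus strand and CDH2 at chr18:28177081-28177380 on the minus strand. Capitals mark CAGGTG or CACCTG, and each sequence reads 5′ to 3′ on the strand of its gene.
TWIST2: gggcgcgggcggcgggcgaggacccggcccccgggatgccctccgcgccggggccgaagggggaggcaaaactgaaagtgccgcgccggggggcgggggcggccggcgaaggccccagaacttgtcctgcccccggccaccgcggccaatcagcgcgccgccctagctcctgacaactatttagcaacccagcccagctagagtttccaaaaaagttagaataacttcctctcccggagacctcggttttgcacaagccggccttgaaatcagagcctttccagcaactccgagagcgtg
ZEB1: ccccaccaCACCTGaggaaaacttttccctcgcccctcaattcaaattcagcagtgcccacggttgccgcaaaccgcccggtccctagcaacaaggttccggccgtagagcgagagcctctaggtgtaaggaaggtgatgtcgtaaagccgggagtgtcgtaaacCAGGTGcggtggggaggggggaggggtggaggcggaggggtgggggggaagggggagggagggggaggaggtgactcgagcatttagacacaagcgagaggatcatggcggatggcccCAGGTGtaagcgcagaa
CDH2: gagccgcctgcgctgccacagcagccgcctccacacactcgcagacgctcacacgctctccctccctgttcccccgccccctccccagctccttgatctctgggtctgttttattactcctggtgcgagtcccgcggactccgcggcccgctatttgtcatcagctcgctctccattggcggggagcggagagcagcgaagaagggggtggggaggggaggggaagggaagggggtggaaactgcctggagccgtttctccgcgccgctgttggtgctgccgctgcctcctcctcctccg
The ZEB1 window holds 3 matches, whose first bases lie at -242, -85 and 34 from the start site, and the TWIST2 and CDH2 windows hold 0. Of the 11 windows of the 4 genes, 2 hold a match, both of ZEB1, and 20.6% of all 35116 promoter windows of this length hold one. The looser pattern CANNTG, which includes the first, has 0 matches in the TWIST2 and CDH2 windows shown and 3 in the ZEB1 window. Some other ZEB1 windows also have 0, and the pattern occurs in 68.7% of all windows. A match describes letters only, and the counts were made on another build (hg19).

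N-cadherin (CDH2) was expressed throughout, from 78.4 to 169 CPM. Top 10 negative cells held 144, 151 and 157 CPM and Top 10 positive cells 169, 135 and 146, above all libraries of the other 8 groups except Parental negative replicate 1 (136 CPM), which exceeded Top 10 positive replicate 2. Bottom 10 negative cells held 134, 129 and 109 CPM, Bottom 10 positive cells 132, 102 and 88.5. Bottom 5 negative cells were lowest at 83.8, 78.4 and 92.9 CPM.

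E-cadherin (CDH1) was nearly undetected. It had 0 reads in 14 libraries and at most 5 in 27, which together held 36. The other 3 libraries held 51 reads (Top 10 positive replicate 1), 46 (Bottom 10 positive replicate 3) and 46 (Bottom 5 negative replicate 2). Their levels were 2.19 CPM (95% exact Poisson interval 1.63 to 2.88), 3.15 (2.30 to 4.20) and 2.37 (1.73 to 3.16), where the intervals cover counting error only. In each of these groups the other libraries held 0 to 4 CDH1 reads, so no group was raised as a whole. For a count of 0 the limit used is 3 reads, in place of the interval, which is 0.117 to 0.240 CPM depending on the library. In the 3 Top 5 positive libraries CDH1 was 0 throughout. In the same 3 libraries 4 of 21 epithelial junction genes exceeded their level in each of the other 27. They were EPCAM (34 to 57 reads against at most 17), ST14 (36 to 48 against at most 8), RAB25 (10 to 13 against at most 2) and CRB3. CRB3 had 2 to 6 reads against at most 3, and was apart on the CPM scale only. The share of all genes apart in this way is not given, so the 4 have no background beside them. The 17 others, such as TJP1, CLDN4 and F11R, did not. The part of these reads in the results was not tested, so the members' calls in the fit without a block are also given without these 3 libraries. Bottom 10 positive replicate 3 and Bottom 5 negative replicate 2 are also among the 6 libraries apart on the second component. The 2 omissions are therefore not independent checks. CDH1 was called in 0 of 24 edgeR tests, with an unadjusted p under 0.05 in 5 of the 19 comparisons of single groups, each of which set one of these 3 libraries against groups near 0.

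**Figure D3:**
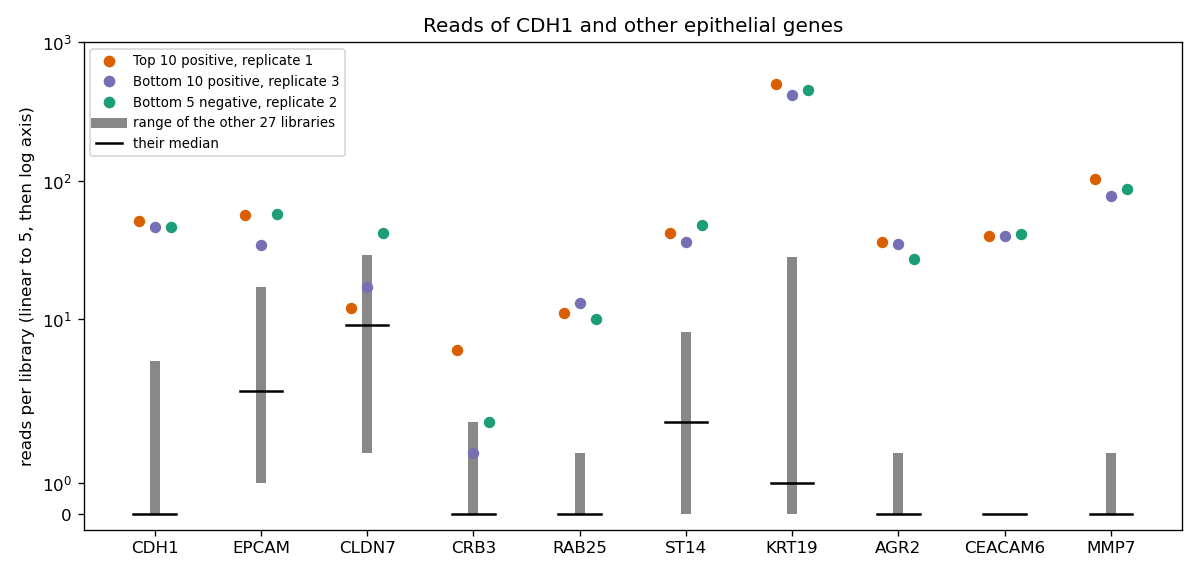
Reads per library (y axis, linear to 5 and then log) of CDH1 and 9 other epithelial genes (x axis). Coloured points are the 3 libraries with 46 to 51 CDH1 reads, the grey bar is the range of the other 27 and the black line their median. KRT19, AGR2, CEACAM6 and MMP7 were chosen after their values were seen.

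The side of the filter after 10 rounds, over both sorts, gave the most calls among the 8 genes. It sets 6 libraries against 6, where a comparison of single groups sets 3 against 3, so the numbers of calls are not on equal terms. Taken over both sorts, 4 of the 8 genes differed between Bottom 10 and Top 10 cells: SNAI1, SNAI2 and CDH2 were lower and TWIST2 was higher in Bottom 10 cells. This comparison does not show which side departed from Parental cells, and the values against Parental cells are given below. Over all genes 3.97% were called in this comparison, 2.50% higher and 1.47% lower. TWIST2 averaged 7.08 CPM in Bottom 10 and 2.57 in Top 10 cells, which is 1.47 ± 0.30 on the log2 scale (adjusted p = 0.00367 in edgeR). It was higher in all 6 Bottom 10 than in all 6 Top 10 libraries. SNAI2 averaged 0.755 against 3.12 CPM, which is -1.92 ± 0.51 on the log2 scale (adjusted p = 0.0317 in edgeR), again with no overlap of the 6 and 6 libraries. SNAI1 averaged 23.6 against 32.4 CPM (log2 fold change -0.46 ± 0.12, edgeR adjusted p = 0.0258) and CDH2 115.6 against 150.4 (-0.38 ± 0.11, edgeR adjusted p = 0.0414), where SNAI1 overlapped and CDH2 did not. TWIST1, at 23.3 against 31.3 CPM, missed the threshold (-0.41 ± 0.13, edgeR adjusted p = 0.0744). The same holds for ZEB1 at -0.08 ± 0.22 and ZEB2 at 0.16 ± 0.25, and the median over all genes was 0.01. Without the 3 libraries with CDH1 reads none of the 4 calls remained: TWIST2 stood at 1.20 ± 0.32 (edgeR adjusted p = 0.0528), SNAI2 at -1.95 (0.101), SNAI1 at -0.43 (0.117) and CDH2 at -0.28 (0.276). Leaving out single libraries kept TWIST2 past the threshold in 12 of 12 fits, at 1.33 to 1.66 (edgeR adjusted p up to 0.0165). SNAI2 kept its call in 2, without Top 10 negative replicate 3 or Top 10 positive replicate 3, and CDH2 in 2, without Bottom 10 positive replicate 1 or Top 10 positive replicate 2. SNAI1 kept its call in 5 and missed it without Bottom 10 negative replicate 2 or 3, Bottom 10 positive replicate 2, Top 10 negative replicate 1 or 2, or Top 10 positive replicate 1 or 2. The edgeR adjusted p of SNAI1, SNAI2 and CDH2 reached at most 0.0845, 0.0885 and 0.137 in those fits. Without the 6 libraries on the second component TWIST2 (1.33, edgeR adjusted p = 0.0221) and SNAI2 (-1.96, adjusted p = 0.0375) stayed past the threshold and SNAI1 (0.0643) and CDH2 (0.0720) did not.

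CDH2 also missed the threshold in a fit of only the groups compared (edgeR adjusted p = 0.115) and without the filter on low counts (0.0704).

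The summed level of 12 fibroblast markers includes TWIST2, so it is not independent of the TWIST2 difference. It was 26.4 to 36.7 CPM in Top 10 negative and 29.3 to 39.4 in Top 10 positive cells. In Bottom 10 negative cells it was 38.0 to 58.7 and in Bottom 10 positive cells 34.5 to 44.4 CPM. The collagens of that list, COL1A1, COL14A1, COL1A2 and COL3A1, averaged 6.85, 0.545, 0.183 and 0.0818 CPM over the 30 libraries. The 14 melanoma markers summed to 2452 to 5594 CPM in the Top 10 groups and 1496 to 3207 in the Bottom 10 groups. The 13 keratinocyte markers summed to 164 to 210 CPM in Top 10 negative and 142 to 174 in Bottom 10 negative cells, and to 151 to 174 in Top 10 positive and 169 to 327 in Bottom 10 positive cells. Their part in the TWIST2 and SNAI differences was not tested.

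Within a single sort no member passed, in a comparison where 1.33% of genes were called for the negative and 0.943% for the positive sort. In the negative sort 5 of the 8 had an unadjusted p under 0.05 in edgeR, as had 9.04% of all genes, and DESeq2 called TWIST1 and TWIST2. TWIST2 had the smallest adjusted p, at 1.55 ± 0.42 on the log2 scale (adjusted p = 0.0782 in edgeR). SNAI2 stood at -2.18 ± 0.70 (edgeR adjusted p = 0.167). In the positive sort 4 had an unadjusted p under 0.05, against 9.00% of all genes, and DESeq2 called TWIST2 and CDH2. TWIST2 stood there at 1.40 ± 0.42 (edgeR adjusted p = 0.153) and SNAI2 at -1.66 ± 0.75 (edgeR adjusted p = 0.492). Shares of all genes called are those of edgeR, here and below. The shares that DESeq2 called are not given, so its calls of members have no background beside them. Libraries of the Top 10 and Bottom 10 groups with the same replicate number deviated together, so the number was also used as a block. In a fit of these 4 groups with the replicate block, chosen after seeing the data, SNAI1 (-0.43 ± 0.11, edgeR adjusted p = 0.0326), SNAI2 (-2.18 ± 0.20, adjusted p = 0.000189), TWIST1 (-0.57 ± 0.11, adjusted p = 0.00971) and TWIST2 (1.54 ± 0.22, adjusted p = 0.00213) passed in the negative sort. SNAI1 (-0.47 ± 0.11, edgeR adjusted p = 0.0278), SNAI2 (-1.67 ± 0.26, adjusted p = 0.00389) and TWIST2 (1.42 ± 0.21, adjusted p = 0.00320) passed in the positive sort. The same members passed in that fit without the 3 libraries with CDH1 reads, with edgeR adjusted p up to 0.0212 in the negative and up to 0.0476 in the positive sort. ZEB2 passed there too, in the negative sort (0.88 ± 0.21, edgeR adjusted p = 0.0198). In the positive sort of that fit only replicate 2 remained on both sides, so its result there rests on 1 complete pair. With the replicate block in the fit of all groups, TWIST2 alone passed, in the negative sort (1.53, edgeR adjusted p = 0.0329). The shares of all genes called in fits with a replicate block are not given here or below. Calls of members in those fits therefore cannot be set against a background.

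The difference between the sides was not itself shown to differ between the sorts. That interaction called 0 members and 0% of the 15381 genes in edgeR, and 0 members in DESeq2. At an unadjusted p under 0.05 stood 2.87% of all genes and 1 member, ZEB2 (edgeR unadjusted p = 0.0105). Its log2 fold change, Bottom 10 against Top 10, was 0.85 ± 0.35 among negative and -0.53 ± 0.35 among positive sort cells, a difference of -1.38 ± 0.50 (edgeR adjusted p = 0.998).

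**Figure D4:**
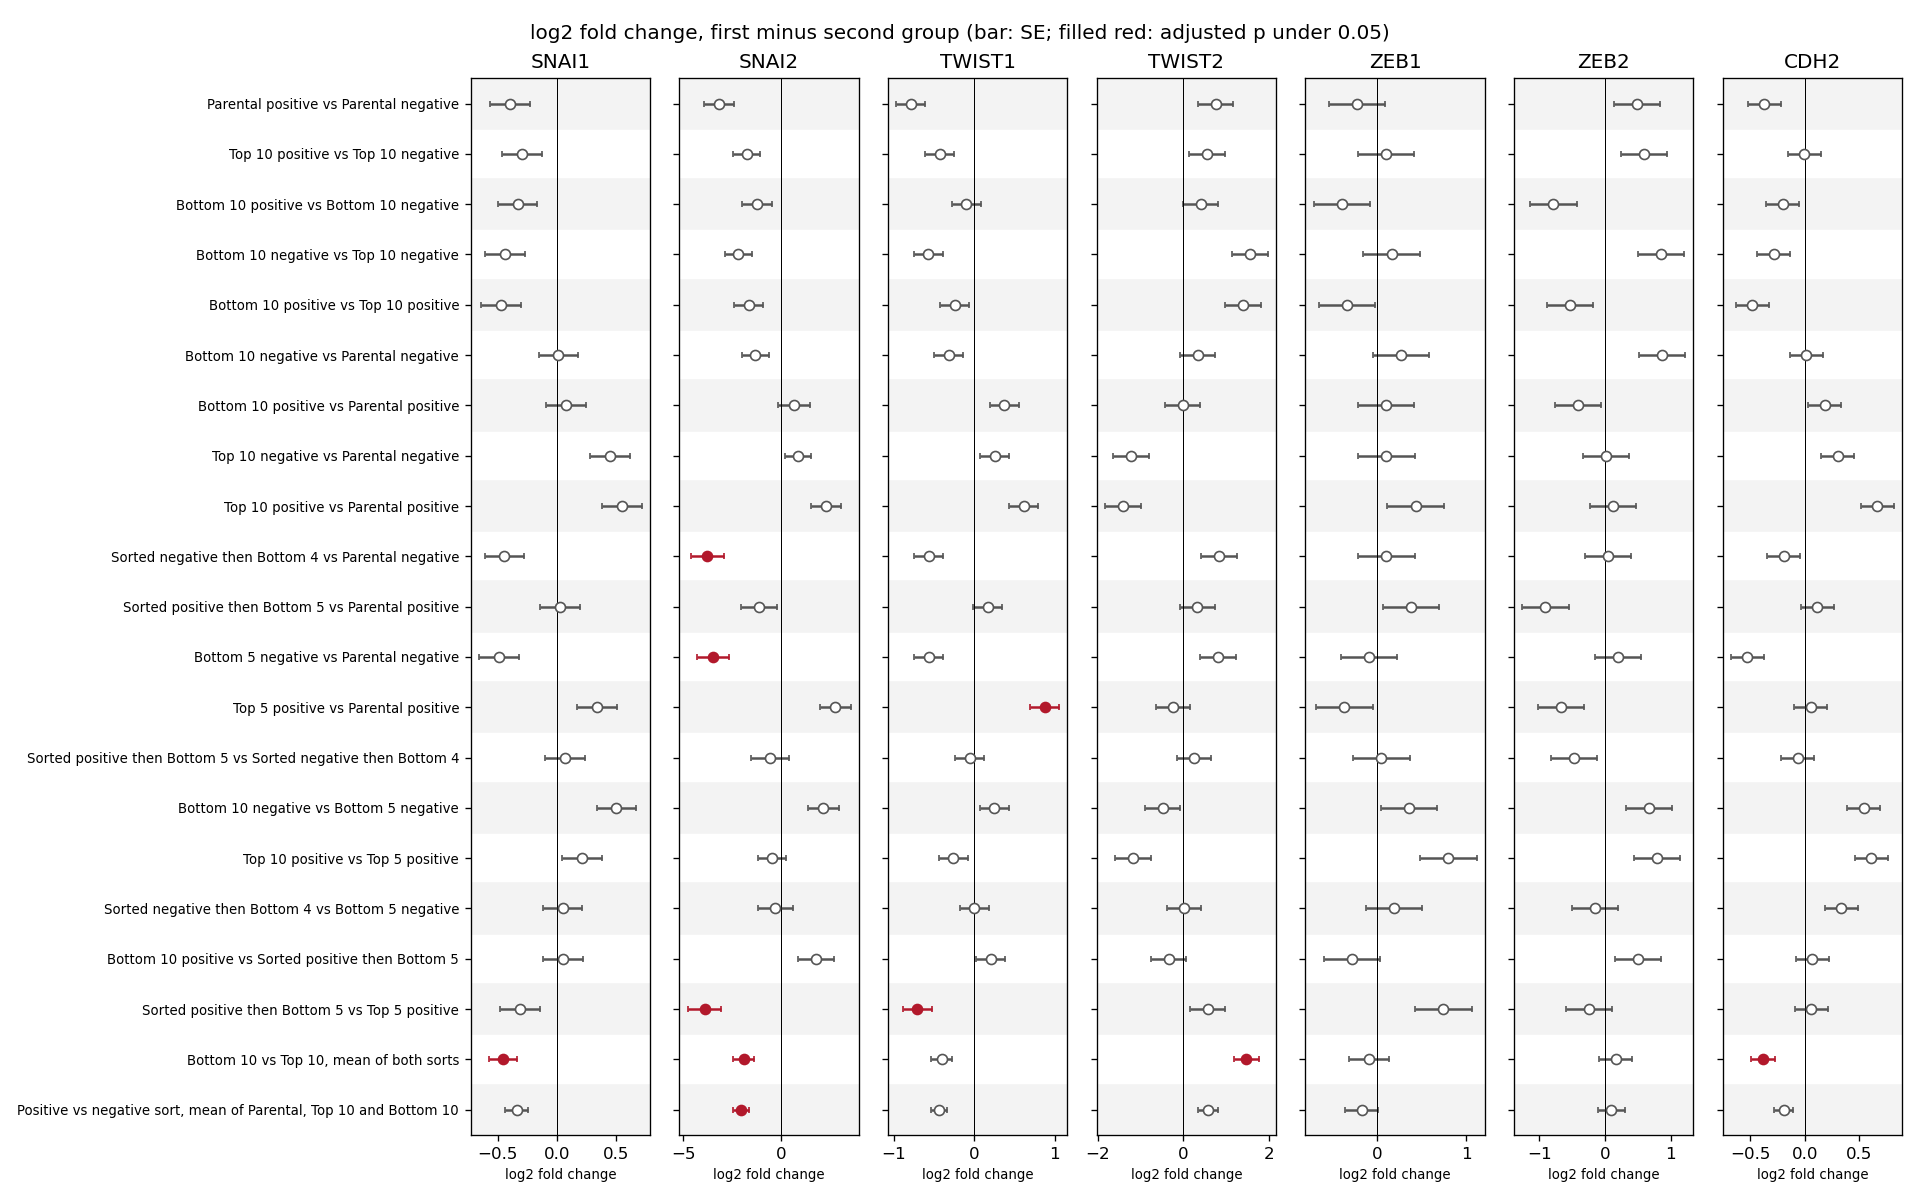
Log2 fold change (x axis, edgeR fit, first minus second group) of 7 genes in 21 comparisons (y axis), with bars of 1 SE and filled red points for an adjusted p under 0.05. CDH1, near 0 reads, is not drawn. SNAI2 spans -3.91 to 2.77 over single groups and is filled 5 times, and ZEB1 and ZEB2 are filled in none.

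The sort for integrin β4 gave 1 call among the 8. Over Parental, Top 10 and Bottom 10 cells SNAI2 fell in the positive sort, from 2.84 to 0.716 CPM on average, which is -2.06 ± 0.43 on the log2 scale (adjusted p = 0.0310 in edgeR), where 0.364% of genes were called. On the log2 scale the positive sort stood at -3.18 ± 0.77 against the negative in Parental, -1.76 ± 0.69 in Top 10 and -1.24 ± 0.76 in Bottom 10 cells, with no overlap in any of them. The nearest Parental libraries held 14 reads (0.788 CPM, negative replicate 3) and 16 reads (0.624 CPM, positive replicate 3). Bottom 10 positive libraries held 7 to 8 reads each. TWIST1 averaged 30.0 in the negative and 22.2 CPM in the positive sort (-0.44 ± 0.10, edgeR adjusted p = 0.0631) and SNAI1 29.4 and 23.3 (-0.34 ± 0.10, edgeR adjusted p = 0.165). With the replicate block in the fit of all groups TWIST1 was called as well (-0.43 ± 0.09, edgeR adjusted p = 0.0266), although the numbers did not pair the Parental libraries. DESeq2 called SNAI2, TWIST1 (adjusted p = 0.00460) and SNAI1 (adjusted p = 0.0340). Of 5 tested keratinocyte markers 5 had a positive log2 fold change between the sorts, with a median of 0.57, and their part was not tested. Without the 3 libraries with CDH1 reads SNAI2 stood at -2.15 ± 0.49 (edgeR adjusted p = 0.0816). Over 18 single omissions it ranged from -2.51 to -1.66, the latter without Parental negative replicate 1 (edgeR adjusted p = 0.0991). It kept its call in 6 of them, without Bottom 10 negative replicate 2, Bottom 10 positive replicate 3, Parental negative replicate 2 or 3, Parental positive replicate 3 or Top 10 negative replicate 3.

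Within single populations the sort called 0 of the 8 in edgeR. In Parental cells, where 0.0585% of genes were called, 4 had an unadjusted p under 0.05 (4.45% of all genes), TWIST1 stood at -0.79 ± 0.18 on the log2 scale (adjusted p = 0.118 in edgeR), SNAI2 at -3.18 (adjusted p = 0.133), and DESeq2 called both. In Top 10 cells 0.0130% of genes were called, and 3 members and 1.71% of all genes had an unadjusted p under 0.05. With the replicate block in the fit of the Top 10 and Bottom 10 groups SNAI2 was called there (-1.75 ± 0.20, edgeR adjusted p = 0.0125), and also without the 3 libraries with CDH1 reads (-1.76 ± 0.24, edgeR adjusted p = 0.0289). In Bottom 10 cells 0% of genes were called, and 2 members and 3.57% of all genes had an unadjusted p under 0.05. DESeq2 called 0 members in both. The interactions of sort with population called 0 members and 0% of genes in edgeR and 0 members in DESeq2. For Bottom 10 against Parental cells 2 members and 3.01% of genes had an unadjusted p under 0.05, and for Top 10 against Parental cells 0 members and 0.819% of genes.

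Against Parental negative cells, SNAI2 fell in both negative sort groups that had crossed 4 or 5 times. It held 0.194 ± 0.0705 CPM in Sorted negative then Bottom 4 and 0.232 ± 0.161 in Bottom 5 negative against 2.65 ± 2.64 in Parental negative cells. The log2 fold change was -3.76 ± 0.82 for the first (edgeR adjusted p = 0.0164, with 2.00% of genes called) and -3.47 ± 0.81 for the second (edgeR adjusted p = 0.0400, with 0.858% called). These comparisons share the 3 Parental negative libraries, and SNAI2 was the only member called in either. Neither group overlapped Parental negative cells. Without Parental negative replicate 1, which held 97 of the 139 SNAI2 reads of its group, the values were -2.55 (edgeR adjusted p = 0.207) and -2.26 (edgeR adjusted p = 0.493). The first also missed the threshold without Sorted negative then Bottom 4 replicate 3 (-3.46, edgeR adjusted p = 0.0636), and the second passed in 1 of 6 single omissions, without Parental negative replicate 3. Replicate numbers paired the libraries of the second comparison, and with the replicate block in the fit of all groups it stood at -3.20 ± 0.75 (edgeR adjusted p = 0.0317). Without the 3 libraries with CDH1 reads the second stood at -4.17 ± 1.05 (edgeR adjusted p = 0.129), and without the 6 on the second component at -4.19 (edgeR adjusted p = 0.0525), while the first kept its call in both. In fits of only the groups compared neither passed (edgeR adjusted p = 0.304 and 0.374). The counts of genes called, 308 and 132, were 59 and 30 without Parental negative replicate 1.

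Levels of cell type markers stood beside these differences as follows. Keratinocyte markers summed to 193 to 416 CPM in Sorted negative then Bottom 4 and 160 to 274 in Bottom 5 negative against 145 to 191 in Parental negative cells. Of 5 tested, 5 and 4 had positive log2 fold changes, with medians of 0.72 and 0.31. Melanoma markers summed to 1371 to 2345, 1261 to 4760 and 1817 to 4753 CPM in the same order, and 11 and 8 of 12 tested had negative log2 fold changes, with medians of -0.64 and -0.38. Fibroblast markers summed to 31.0 to 68.5, 49.3 to 54.7 and 42.9 to 51.0 CPM. DCN (decorin, a matrix proteoglycan) rose among them in Sorted negative then Bottom 4 cells, from 0.591 to 1.86 CPM (1.63 ± 0.43, edgeR adjusted p = 0.0495). Their part in the SNAI2 differences was not tested.

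TWIST1 was 20.3 ± 2.88 CPM in Sorted negative then Bottom 4 and 20.3 ± 2.44 in Bottom 5 negative against 30.1 ± 8.52 in Parental negative cells, with log2 fold changes of -0.57 ± 0.18 in both (edgeR adjusted p = 0.106 and 0.183).

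Among positive sort groups TWIST1 had its highest mean in cells that had stayed above the filter for 5 rounds. It rose from 17.4 ± 0.936 CPM in Parental positive to 31.9 ± 2.79 in Top 5 positive cells, which is 0.88 ± 0.18 on the log2 scale (adjusted p = 0.0484 in edgeR, with 0.163% of genes called), and no libraries overlapped. In Sorted positive then Bottom 5 cells it fell against Top 5 positive cells, to 19.5 ± 2.00 CPM, which is -0.71 ± 0.18 on the log2 scale (adjusted p = 0.0379 in edgeR), again without overlap. SNAI2 fell in that comparison too, from 2.00 ± 2.29 to 0.120 ± 0.0699 CPM, or -3.91 ± 0.86 on the log2 scale (edgeR adjusted p = 0.0159), where 2.05% of genes were called. In the second comparison the groups differ in side of the filter and, by their titles, in whether the sort came before the migration. These cannot be told apart there. Both comparisons use the 3 Top 5 positive libraries, of which replicates 1 and 3 stood apart on the second component. Without the 6 libraries TWIST1 stood at 0.76 ± 0.24 (edgeR adjusted p = 1.00) and -0.60 ± 0.24 (adjusted p = 0.478) and SNAI2 at -2.09 ± 1.07 (adjusted p = 0.666), so that none of the 3 calls remained. Fits of only the groups compared called neither TWIST1 difference (edgeR adjusted p = 0.393 and 0.256), and SNAI2 did not pass the count filter in the second. Without the filter on low counts TWIST1 missed the threshold in both (edgeR adjusted p = 0.0955 and 0.1005). Without Top 5 positive replicate 1 alone SNAI2 stood at -2.39 (edgeR adjusted p = 0.264), and of 6 single omissions it kept its call in 2, without Top 5 positive replicate 2 or 3. Both TWIST1 calls remained in 1 of 6 single omissions, without Top 5 positive replicate 2, with edgeR adjusted p up to 0.270 and 0.179. Without the 3 libraries with CDH1 reads, none of which is in these groups, SNAI2 kept its call and TWIST1 stood at an edgeR adjusted p of 0.0585 and 0.0501. The shares of genes called rest on 25 and 315 genes, which became 1200 and 1287 without Top 5 positive replicate 2, and 6 to 14 and 97 to 218 without any other single library. Keratinocyte markers summed to 156 to 229 CPM in Parental positive, 192 to 340 in Top 5 positive and 246 to 299 in Sorted positive then Bottom 5 cells, and their part was not tested.

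The other 10 comparisons of single groups called 0 members in edgeR. Top 10 against Parental positive cells came nearest, with 0.384% of genes called and 5 members at an unadjusted p under 0.05, as 9.05% of all genes. CDH2 stood there at 150.1 ± 17.4 against 94.8 ± 9.78 CPM (0.66 ± 0.15, edgeR adjusted p = 0.0523), and DESeq2 called CDH2, TWIST1 and TWIST2. Top 10 against Parental negative cells gave 2 members and 4.74% of genes at an unadjusted p under 0.05, with 0.0455% called. Bottom 10 against Parental cells gave 1 member at that level in either sort, ZEB2 among negative and TWIST1 among positive sort cells. There 7.64% and 8.30% of genes had an unadjusted p under 0.05 and 0.325% and 0.247% were called. SNAI1 differed by 0.01 ± 0.17 and 0.07 ± 0.17 in those comparisons. DESeq2 called 0 members in any of these 3 comparisons. For the negative and positive sort in turn, Bottom 10 against Parental cells gave CDH2 at 0.01 ± 0.15 and 0.18 ± 0.15. TWIST2 stood there at 0.33 ± 0.41 and -0.02 ± 0.41 and SNAI2 at -1.31 ± 0.69 and 0.63 ± 0.81. Top 10 against Parental cells gave SNAI1 at 0.45 ± 0.17 and 0.55 ± 0.17 and CDH2 at 0.30 ± 0.15 and 0.66 ± 0.15. TWIST2 stood there at -1.22 ± 0.43 and -1.41 ± 0.42 and SNAI2 at 0.87 ± 0.67 and 2.29 ± 0.76.

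Sorted positive then Bottom 5 against Sorted negative then Bottom 4 cells gave 0 members by edgeR, 0 by DESeq2 and 0 at an unadjusted p under 0.05, where 3.67% of genes had such a p and 0% were called. The log2 fold change of SNAI1 was 0.07 ± 0.17 and that of TWIST1 -0.06 ± 0.18. Against Parental positive cells, Sorted positive then Bottom 5 cells had 1 member, ZEB2, at an unadjusted p under 0.05 (3.01% of genes, 0.0390% called), and Bottom 10 positive against Sorted positive then Bottom 5 cells gave 0 (8.78%, 0.208% called). Sorted negative then Bottom 4 against Bottom 5 negative cells gave 2 (2.30%, 0% called). DESeq2 called 0 members in each of these. The 10 round groups were also set against 5 rounds on the same side. Bottom 10 against Bottom 5 negative cells gave 4 members at an unadjusted p under 0.05 (7.22% of genes, 0.117% called). Top 10 against Top 5 positive cells gave 5 (21.7%, 0.0455% called). CDH2 had log2 fold changes of 0.54 ± 0.15 and 0.61 ± 0.15 there (edgeR adjusted p = 0.241 and 0.133), and DESeq2 called it alone in both.

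Across the 30 libraries the levels of the SNAI and TWIST genes and CDH2 were related as follows, given as Pearson's r of log2 CPM, without a test since libraries share groups and sequencing depth differs among them. SNAI1 had r of 0.88 with SNAI2, 0.85 with TWIST1 and 0.78 with CDH2, which became 0.57, 0.77 and 0.38 with group means removed. TWIST2 ran against them, with r of -0.91 for SNAI1, -0.85 for SNAI2, -0.77 for TWIST1 and -0.79 for CDH2. With group means removed these 4 values were -0.83, -0.67, -0.70 and -0.54, and without the 6 libraries on the second component -0.92, -0.88, -0.82 and -0.80. ZEB1 and ZEB2 had r of 0.49. With ITGB4, r was -0.69 for SNAI1, -0.74 for SNAI2, -0.66 for TWIST1 and 0.63 for TWIST2, and with the first principal component, to which all genes contribute, -0.78, -0.74, -0.66 and 0.87.

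**Figure D5:**
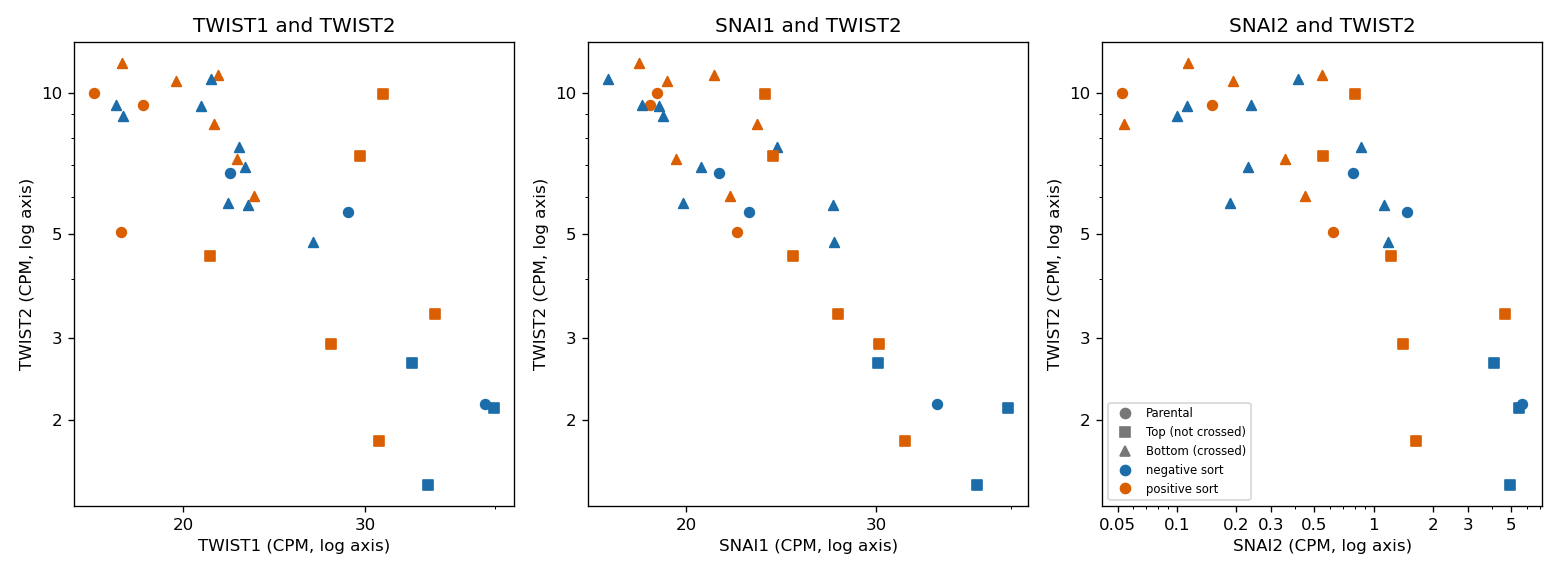
TWIST2 against TWIST1, SNAI1 and SNAI2 (CPM, log axes), 1 point per library (circles, Parental; squares, Top; triangles, Bottom; blue, negative sort; orange, positive sort). TWIST2 is low where the other 3 are high, with r of -0.77, -0.91 and -0.85 over 30 libraries.

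The genes whose log2 levels were most like each member over the 30 libraries, among the 11665 genes whose mean reached 5 CPM in some group, were FZD7 (r of 0.93) and LRRK2 (0.92) for SNAI1, CTSK (0.93) and TESC (0.91) for SNAI2, and TSPAN13 and PKIG (both 0.86) for TWIST1. For TWIST2 they were EVA1A and SERPINB7 (both 0.96). For ZEB1 they were XRN1 (0.91) and SBF2 (0.90), for ZEB2 LRP12 (0.89) and C5orf51 (0.86), and for CDH2 HIPK2 (0.93) and TANC2 (0.89). CDH1 was most like KRT19 (0.93) and PLAU (0.78), a likeness that rests on the 3 libraries with CDH1 reads.

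Genes around these factors were described by 15 lists. The counts of called genes stand beside 3.97% of all genes called between Bottom 10 and Top 10 cells, and 1 call in a list of 16 to 20 genes is a share close to that. Between Bottom 10 and Top 10 cells, over both sorts, E proteins and ID inhibitors had 0 of 8 tested genes called in edgeR, 0 in DESeq2 and 1 at an unadjusted p under 0.05, with a median log2 fold change of -0.24 against 0.01 over all genes. TCF12, the E protein with the highest mean level (123 CPM), is among them. Of 20 cofactors and corepressors 1 was called: AJUBA, a LIM protein that SNAI proteins recruit, rose by 1.76 ± 0.35 (edgeR adjusted p = 0.00338), from 35.0 to 114 CPM. Of 19 genes of factor turnover 1 fell, GSK3B, a kinase that marks SNAI1 for degradation, to -0.84 ± 0.17 on the log2 scale (edgeR adjusted p = 0.00339). The other mesenchymal transition factors had 3 of 17 higher and 4 lower. SOX9 (2.27), FOSL1 (1.21) and ETS1 (0.79) rose, and TBX2 (-1.16), PRRX1 (-1.62) and LEF1 (-0.76) were among those that fell. These lists had medians of 0.03, -0.07 and -0.35.

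Of the genes that the factors are known to act on, 0 of 17 tested epithelial junction genes were called in that comparison by edgeR and 0 by DESeq2. Their median was 0.16, 1 had an unadjusted p under 0.05, and TJP1 had the highest mean level (83.4 CPM). Of 21 mesenchymal target genes 2 rose and 0 fell: POSTN (2.47) from 0.273 to 1.23 CPM and COL5A2 (0.78) from 194 to 332, with a median of 0.24 over the list. Of 12 epithelial transcription and splicing factors KLF5 (0.76) and EHF (1.57) rose and 0 fell, with a median of 0.82. Of 12 other classical cadherins CDH6 (2.30) and CDH10 (2.09) rose, both from a low level (0.306 and 1.37 CPM). The median over that list was 0.17. Of 16 catenins and adherens junction genes PVRL3 (nectin 3) rose by 0.68, and of 12 genes of cadherin processing 0 were called by edgeR, 1 by DESeq2 and 1 had an unadjusted p under 0.05. DNM2 had the highest level there (245 CPM). Without the 3 libraries with CDH1 reads, AJUBA, GSK3B, POSTN, COL5A2, SOX9, ETS1, TBX2, EHF, CDH6 and CDH10 kept their calls in this comparison, and KLF5, FOSL1, PRRX1, PRRX2, LEF1 and PVRL3 did not. Without the 6 libraries apart on the second component, EHF, CDH6, CDH10, PVRL3, PRRX1 and PRRX2 lost theirs. Between the sorts KLF5 was the only gene of the 15 lists that edgeR called, at 0.73 ± 0.15 higher among positive sort cells (edgeR adjusted p = 0.0310). It kept that call without the 3 libraries with CDH1 reads (0.82 ± 0.16, edgeR adjusted p = 0.0357) and lost it without the 6 on the second component (edgeR adjusted p = 0.0577), and DESeq2 also called PRRX2, lower, and CDH6, higher.

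In comparisons of single groups fewer list genes passed. Between Bottom 10 and Top 10 negative cells POSTN (3.42), COL5A2 (1.18), AJUBA (2.01), SOX9 (3.19) and CDH6 (3.39) rose on the log2 scale, and AJUBA lost its call without the 3 libraries with CDH1 reads. Without the 6 libraries on the second component AJUBA (edgeR adjusted p = 0.160), SOX9 (0.144) and CDH6 (0.146) lost theirs, and POSTN and COL5A2 kept theirs. TAGLN (transgelin, an actin-binding protein) fell from 4.34 ± 0.894 CPM in Parental negative to 1.40 ± 0.212 in Bottom 10 negative cells (-1.63 ± 0.36, edgeR adjusted p = 0.0479, and 0.0513 without the 3 libraries with CDH1 reads). KLF5 rose from 75.7 ± 27.4 CPM in Parental negative to 162 ± 11.7 in Sorted negative then Bottom 4 cells (1.10 ± 0.27, edgeR adjusted p = 0.0317), and the rise of DCN there missed the threshold without the 3 libraries (0.0545). Without the 6 on the second component DCN missed it too (edgeR adjusted p = 0.151), and KLF5 and TAGLN kept their calls. In Sorted positive then Bottom 5 against Top 5 positive cells ID4, an inhibitor of helix-loop-helix factors, fell from 7.002 ± 7.41 to 0.469 ± 0.232 CPM. SOX4 and the homeobox factor PRRX2 fell as well, by 2.20 ± 0.57 and 3.00 ± 0.67 on the log2 scale, and FOXA1, a pioneer factor of epithelial tissues, rose by 1.40 ± 0.35. ID4 and PRRX2 kept their calls without the 3 libraries, and SOX4 (edgeR adjusted p = 0.0621) and FOXA1 (0.0545) did not. Without the 6 libraries on the second component none of these 4 was called.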

How the data were processed

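Gene counts were deposited as 1 file per library. Per the submitters' processing notes, STAR, HTSeq and DESeq were used with the hg19 build, without roles or settings, and the strand setting is not given in the sources used here. Reads assigned to no gene (22.1% to 31.8%) were left out. The members and the 15 lists were chosen with earlier results of these data known. In R 4.3.3, edgeR 4.0.16 (filterByExpr with a minimum count of 10 and total of 15, TMM scaling, quasi-likelihood test) fitted all 30 libraries as 10 groups, for 19 comparisons of single groups, 2 of means and 3 interactions. The fit was tested on simulated data for Bottom 10 against Top 10 negative cells. Where the true difference was 2-fold, the fit detected 24 out of 100 such genes. At a true 4-fold difference its yield was 81 out of 100. Among its 107 calls 2 were false. Most true differences of 2-fold were thus missed there, so a missing call does not show equal levels. Alternatives were DESeq2 1.42.0, RLE scaling, no filter, only the groups compared, replicate blocks and omissions of libraries.

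Named are the 8 members, ITGB4, the 2 genes most like each member, and of each list the called genes (at most 3 each way per comparison) or, with none, the gene of highest mean. The labels do not say that replicate numbers pair libraries. Same-numbered libraries were taken as paired where all 3 correlations of their deviations exceeded 0.1: in 7 comparisons, among them all 4 between Top 10 and Bottom 10 groups and Bottom 5 against Parental negative. Replicate pairs differed by 11.6 to 266 times the sampling variance, so none were copies. Lengths for levels per kilobase were those of GENCODE v29 transcripts.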

Additional observations from a re-analysis of the deposited data

How the results depend on the processing

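No log2 fold change of a called member changed sign. Scaling by RLE moved no count of members called and shifted the median of all genes by at most 0.02 on the log2 scale. The number of members called rose with DESeq2 to 2 in Bottom 10 against Top 10 of either sort, in Bottom 5 and in Sorted negative then Bottom 4 against Parental negative and in the sort of Parental cells, to 3 in Top 10 against Parental positive cells and over the sorts, and to 1 in Bottom 10 against Bottom 5 negative and Top 10 against Top 5 positive cells. With only the groups compared it was 1 in Bottom 10 against Top 10 negative cells and 0 in the 4 comparisons of single groups with calls. With a replicate block in the fit of all groups it was 1 in Bottom 10 against Top 10 negative, in Top 10 against Parental positive and in the sort of Parental cells, and 2 over the sorts. With the replicate block and only the groups compared it was 4 and 1 for Bottom 10 against Top 10 of the negative and positive sort, 2 over the sorts, 1 for the sort of Top 10 cells, and 0 in Sorted negative then Bottom 4 against Parental negative, Sorted positive then Bottom 5 against Top 5 positive and Top 5 against Parental positive cells. With the replicate block and the 4 Top 10 and Bottom 10 groups it was 4, 3 and 1 for the same comparisons of side (negative, positive) and the sort of Top 10 cells, and 5, 3 and 1 when the 3 libraries with CDH1 reads were also left out. The block results beyond the paired comparisons rest on a shared number only. No share of all genes called is set beside these counts with DESeq2 or a block.

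Without the 3 libraries with CDH1 reads it was 0 over both sorts for Bottom 10 against Top 10, 0 over the sorts, 0 in Bottom 5 against Parental negative and in Top 5 against Parental positive, and 1 in Sorted positive then Bottom 5 against Top 5 positive cells. Without the 6 libraries on the second component these were 2 for Bottom 10 against Top 10, 0 for the last 3 comparisons named, and 1 in Top 10 against Parental positive cells. Without the filter it was 1 in Sorted positive then Bottom 5 against Top 5 positive and 0 in Top 5 against Parental positive cells. Both sets of omitted libraries, which overlap, and the fits of 4 groups were chosen after seeing the data. Leaving out single libraries gave 1 to 4 members for Bottom 10 against Top 10, 0 to 2 over the sorts, in Sorted negative then Bottom 4 against Parental negative, in Sorted positive then Bottom 5 against Top 5 positive and in Top 5 against Parental positive cells. It gave 0 to 1 in Bottom 5 against Parental negative, the sort of Parental cells, Top 10 against Parental positive and Top 10 against Top 5 positive cells, and 0 elsewhere. The cause of these changes was not tested.

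All genes called ranged over the settings other than single omissions from 354 to 2177 for Bottom 10 against Top 10 (611 in the fit reported), 30 to 163 over the sorts (56), 0 to 542 in Bottom 5 (132) and 0 to 724 in Sorted negative then Bottom 4 against Parental negative (308), 1 to 801 in Sorted positive then Bottom 5 against Top 5 positive (315) and 0 to 84 in Top 5 against Parental positive cells (25). Single omissions gave 396 to 594, 19 to 98, 29 to 124, 59 to 496, 97 to 1287 and 6 to 1200 in the same order. Depth limits SNAI2, with 776 reads over the 30 libraries, and CDH1, with 179.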

Other observations

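The 3 libraries with 46 to 51 CDH1 reads held other epithelial transcripts that were scarce elsewhere, in genes chosen after their values were seen. KRT19, a keratin of simple epithelia, had 502, 415 and 452 reads in Top 10 positive replicate 1, Bottom 10 positive replicate 3 and Bottom 5 negative replicate 2, against at most 28 in each of the other 27 libraries. MMP7, an epithelial metalloproteinase, had 103, 77 and 87 reads against at most 2. CEACAM6 had 40, 40 and 41 against 0, and AGR2 36, 35 and 27 against at most 2. TMPRSS4 (26 to 33 reads against at most 1) and the mucin MUC4 (28 to 44 against at most 5) were placed alike. These 3 libraries belong to 3 different groups.

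The levels of other cadherins are given in raw CPM, which does not correct for length. CDH13 (T-cadherin, which lacks a cytoplasmic tail) averaged 132 CPM, CDH19 56.2 CPM and CDH12 18.7 CPM over the 30 libraries. Among the marker lists SFN, a keratinocyte gene, rose from 0.580 CPM in Top 10 to 4.45 in Bottom 10 cells (2.90 ± 0.73 on the log2 scale, edgeR adjusted p = 0.0212), a call lost without the 3 libraries with CDH1 reads (edgeR adjusted p = 0.161) and without the 6 on the second component (0.105). Of the 5 keratinocyte markers tested 4 had a positive log2 fold change in that comparison, with a median of 0.12. MITF, the melanocyte master regulator, fell by 1.04 ± 0.21 on the log2 scale in Bottom 10 against Parental positive cells, from 58.0 ± 6.47 to 28.2 ± 5.30 CPM (edgeR adjusted p = 0.0243), and missed the threshold without the 3 libraries with CDH1 reads (0.146) and without the 6 on the second component (0.1003).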
